A study of Mus musculus with 14 samples.

Results

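Plasma levels of 5 miRNAs known from connective tissue, miR-143, miR-145, miR-21, miR-140 and miR-218, were examined in mice with osteosarcoma (OS), a malignant tumour of bone, and in control mice. They were chosen by name: every well of the PCR panels whose miRNA name, with the species prefix, arm, copy number and star left out, is one of the 5 was taken. This gave 9 assays of 389 miRNAs with a name in the deposited tables, namely mmu-miR-143 and rno-miR-143, mmu-miR-145 and mmu-miR-145*, mmu-miR-140 and mmu-miR-140*, mmu-miR-21 and mmu-miR-21*, and mmu-miR-218. The prefix mmu marks a mouse and rno a rat sequence, and names without a prefix are those of the mouse assays. A star marks the arm of the hairpin that was named as the minor product in the older nomenclature of these panels. All 9 passed the filter on missing values, which kept 388 miRNAs.

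The samples were plasma from 8 mice with OS and 6 control mice, 1 sample per mouse. The mice with OS were a genetically engineered model (GEMM) in which Cre recombinase under a Col-α1(I) promoter deletes floxed Trp53 in osteoblasts. Whether a given mouse carried the deletion heterozygously or homozygously, its age and the stage of its tumour are not given in the sources used here, so these may differ among the 8 mice. The controls were wild-type littermates, given as p53+/+;Cre+/− in the methods, and cardiac blood was taken into EDTA from both groups, from the mice with OS after a tumour had developed. Levels were read as Cq, the PCR cycle at which a well crosses threshold. A lower Cq means more template, and a step of 1 cycle is close to a doubling. Each Cq was subtracted from the mean Cq of its mouse, so that a higher normalized level means more miRNA relative to the average miRNA of that plasma, on a log2 scale. A Cq above 37 was treated as background. The mean Cq of a mouse lay between 31.7 and 32.9 in mice with OS and between 30.6 and 32.8 in control mice, and 333 to 373 miRNAs were detected per mouse with OS against 341 to 387 per control mouse. A haemolysis marker, Cq of miR-23a minus Cq of the red cell miRNA miR-451, ranged between 1.05 and 6.85 in mice with OS and between 4.11 and 7.21 in control mice. The 3 mice with a marker under 3 were OS mice 10, 11 and 12.

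miRNAs are cut from hairpin transcripts, and a hairpin can give a miRNA from its 5′ arm and another from its 3′ arm, which share their transcript but have different seeds and therefore different targets. miR-143 and miR-145 are made from a shared precursor transcript and are abundant in smooth muscle and other mesenchymal cells. miR-140 comes from an intron of Wwp2 and is the best known miRNA of chondrocytes, the cells of cartilage, where loss of its gene disturbs skeletal growth in mice. miR-21 is made in most cell types and is raised in many tumours and in fibrosis, with the tumour suppressor Pdcd4 among its known targets. miR-218 is made from introns of Slit2 and Slit3, genes for axon guidance ligands, and has been studied in osteoblasts, neurons and stromal cells.

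The mature sequences of 4 of the assays are printed to show their seeds, which differ from each other. They are from RefSeq (GRCm38.p6), written 5′ to 3′, with the seed, bases 2 to 8, in capitals. miR-21 and miR-21* lie on the minus strand at chr11:86584120-86584141 and chr11:86584082-86584103, inside the gene Vmp1. miR-140* lies on the plus strand at chr8:107551288-107551308, inside Wwp2, and is named miR-140-3p today. miR-218 is the 5′ arm of 2 hairpins with 1 mature sequence, on the plus strand at chr5:48223966-48223986 inside Slit2 and at chr11:35616840-35616860 inside Slit3, so its assay cannot tell the genes apart.
miR-21: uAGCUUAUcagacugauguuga
miR-21*: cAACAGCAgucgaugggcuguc
miR-140*: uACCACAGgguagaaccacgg
miR-218: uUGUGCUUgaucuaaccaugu
In the same RefSeq table the seed of miR-21 is also carried by miR-21c, that of miR-140* by miR-497b and that of miR-218 by miR-7002-3p. The hairpins are printed with the mature miRNAs of the table in capitals, Mir21a from chr11:86584067-86584158 (minus strand) and Mir140 from chr8:107551244-107551313 (plus strand). The RefSeq table holds no mature sequence for miR-140, from the 5′ arm. In Mir140 only miR-140* is therefore in capitals, and miR-140 is not marked.
Mir21a: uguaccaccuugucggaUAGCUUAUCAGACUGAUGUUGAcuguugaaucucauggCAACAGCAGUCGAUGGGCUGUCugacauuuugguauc
Mir140: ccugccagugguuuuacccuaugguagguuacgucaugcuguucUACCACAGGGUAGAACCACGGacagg

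Across the 9 assays, plasma of mice with OS showed lower measured levels of miR-140, miR-21, miR-21*, miR-218 and both miR-143 assays, by 1.49-fold to 2.06-fold, and levels of miR-145, miR-145* and miR-140* that were closer to those of control mice. The level of miR-145* leaves out OS mouse 10, at Cq 40. With missing values set to Cq 38 the difference of miR-145* was −0.86 (limma adjusted p = 0.389). None of the 9 passed limma with Benjamini-Hochberg adjustment over all miRNAs at a threshold of 0.05, a test passed by 49 of the 388 miRNAs (12.6%), 24 higher and 25 lower in mice with OS. At an unadjusted limma p under 0.05 there were 3 of the 9, miR-140, miR-21* and miR-218, against 119 of the 388 (30.7%). The measured difference was below 0 for 7 of the 9 assays, against 195 of the 388 (50.3%), and its median was −0.74 over the 9 against −0.00266 over all. The count of 7 was the same when mice were scaled to the median, to all wells or to the 3 miRNAs that the study used as references, was 8 with each panel scaled to its own mean and 9 without scaling. No assay had groups that did not overlap, which 11 of the 388 miRNAs (2.84%) had. The 9 assays are not 9 independent readings, since both miR-143 assays read nearly the same molecule and arms share a hairpin. In plasma, fewer cells that release a miRNA and less of it released per cell cannot be told apart.

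**Figure D1:**
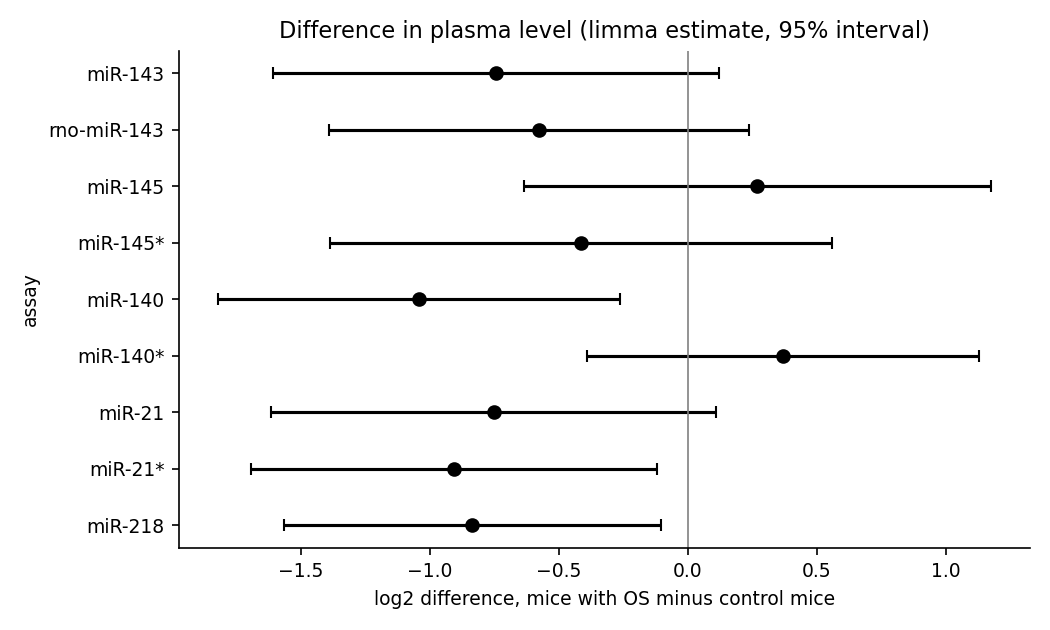
Difference in normalized plasma level (x axis, log2, mice with OS minus control mice) for each of the 9 assays (y axis). Points are limma estimates and bars are 95% intervals over 8 mice with OS and 6 control mice, fewer for miR-145* and miR-21*. The intervals of miR-140, miR-21* and miR-218 lie below 0 and the other 6 include 0.

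Of the 9 assays, mmu-miR-140 had the lowest adjusted p. Its normalized level was 0.60 at lowest, 2.30 at the median and 2.91 at highest in mice with OS, against 2.57, 3.05 and 3.81 in control mice. Every mouse with OS but OS mouse 15 lay below the lowest control, while OS mouse 10 stood lowest at 0.60. The means were 2.08 ± 0.72 in mice with OS (SD, n = 8) and 3.12 ± 0.46 in control mice (SD, n = 6), a difference of −1.04 with an SE of 0.37 and a 95% interval of −1.82 to −0.26, or 2.06-fold. The limma adjusted p was 0.0748, and an exact permutation test over the 3003 splits of the mice gave p = 0.00466 (two-sided, not adjusted). Without OS mouse 15 the difference was −1.16 with a limma adjusted p of 0.0385, in a fit that called 18.8% of all miRNAs. Without OS mice 10, 11 and 12, whose haemolysis marker was under 3, the difference was −0.66 with a limma adjusted p of 0.365. The 2 mice with a marker over 7 were control mice 3 and 13, with miR-140 at 3.81 and 3.42. Without them the difference was −0.81 with a limma adjusted p of 0.274. With the marker as a covariate it was −0.56 with a limma adjusted p of 0.35. After the group means were removed, miR-140 followed the marker with an r of 0.86 over 14 mice.

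The other arm of the same hairpin, miR-140*, was more readily detected than miR-140 in every mouse and did not share this difference. Its level was 5.69, 6.35 and 7.74 in mice with OS (lowest, median and highest) and 5.62, 6.15 and 6.68 in control mice. OS mice 10, 11 and 17 lay above every control and no mouse with OS below every control. The means were 6.52 ± 0.73 in mice with OS (SD, n = 8) and 6.15 ± 0.34 in control mice (SD, n = 6), a difference of 0.37 (SE 0.36, limma adjusted p = 0.513) that became −0.07 with each panel scaled to its own mean and −0.07 without scaling. Without OS mouse 11 it was 0.19.

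**Figure D2:**
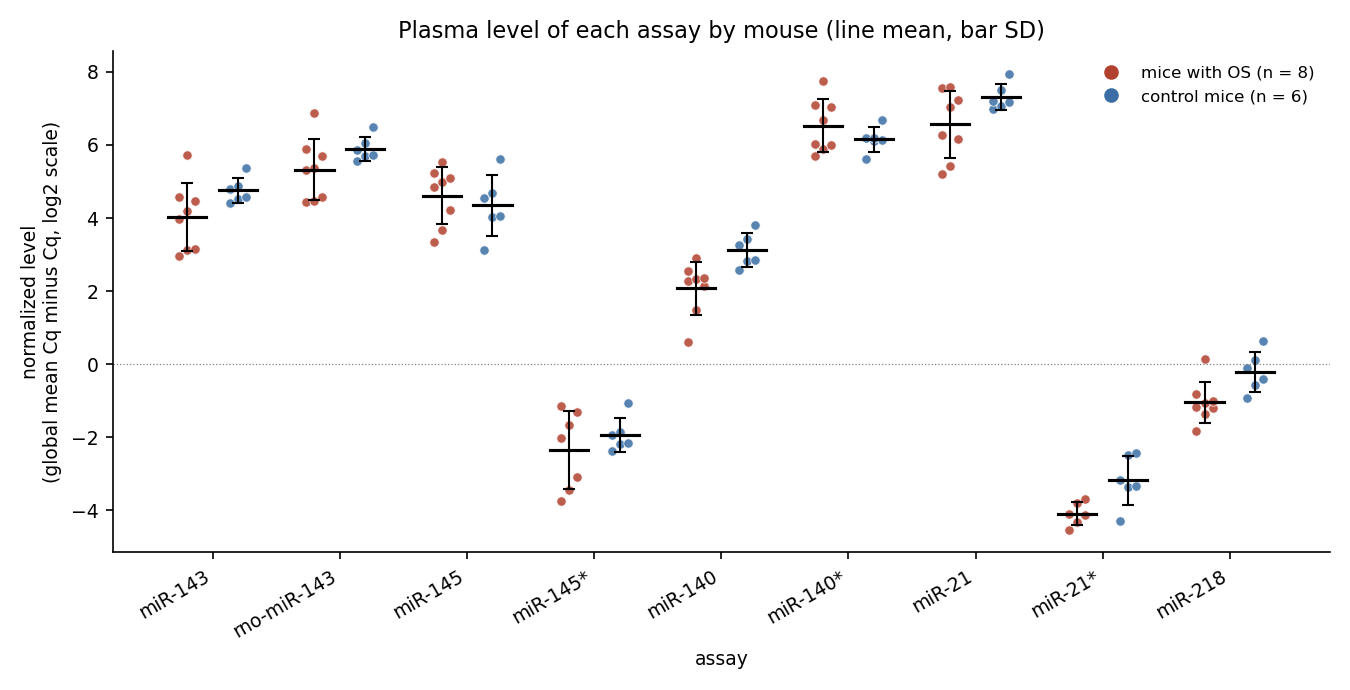
Normalized plasma level (y axis, log2, the mean Cq of the mouse minus Cq) of each assay (x axis) in single mice. Red points are mice with OS and blue points are control mice, with the group mean as a line and the SD as a bar. The groups overlap in all 9 assays, and miR-140 has 7 of its 8 OS points below the lowest control point.

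Of the pair of miRNAs from a shared precursor, whose genes Mir143 and Mir145a lie on chromosome 18 with 1301 bases between their hairpins, miR-143 had the lower measured level in mice with OS and miR-145 did not. The mouse assay, mmu-miR-143, read 2.97, 4.08 and 5.71 in mice with OS and 4.42, 4.68 and 5.37 in control mice (lowest, median and highest). The mice with OS were spread to both sides of the controls, 5 of them below the lowest control and OS mouse 17 above the highest. The lowest readings were those of OS mice 10, 11 and 12, at 3.12, 3.15 and 2.97. The means were 4.02 ± 0.93 in mice with OS (SD, n = 8) and 4.76 ± 0.34 in control mice (SD, n = 6), a difference of −0.74 (SE 0.41, 95% interval −1.60 to 0.12, limma adjusted p = 0.227). Without OS mice 10, 11 and 12 the difference was −0.17 (limma adjusted p = 0.89). The rat assay for miR-143 gave the same picture from a different well, with means of 5.32 ± 0.84 in mice with OS (SD, n = 8) and 5.89 ± 0.33 in control mice (SD, n = 6), a difference of −0.57 (SE 0.39, limma adjusted p = 0.324).

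mmu-miR-145 read 3.35, 4.92 and 5.52 in mice with OS and 3.13, 4.30 and 5.62 in control mice (lowest, median and highest). All 8 mice with OS lay within the range of the controls. The means were 4.61 ± 0.78 in mice with OS (SD, n = 8) and 4.34 ± 0.83 in control mice (SD, n = 6), a difference of 0.27 (SE 0.43, 95% interval −0.64 to 1.17, limma adjusted p = 0.705) that was −0.17 without scaling. It was 0.029 without control mouse 3, 0.14 without OS mouse 19, 0.45 without OS mouse 15 and 0.53 without control mouse 4. Its minor arm miR-145* was near the detection limit, with a Cq of 32.8 to 34.7 in control mice. In mice with OS it split into 2 sets, OS mice 11, 12 and 19 between −3.75 and −3.10, below every control, and OS mice 15, 16, 17 and 18 between −2.03 and −1.14. OS mouse 10 was at Cq 40 and was left out of the means, which were −2.35 ± 1.07 in mice with OS (SD, n = 7) and −1.93 ± 0.47 in control mice (SD, n = 6), a difference of −0.41 (SE 0.46, limma adjusted p = 0.569). It was −0.18, −0.24 and −0.23 without OS mouse 11, OS mouse 12 and control mouse 4, and −0.86 with missing values set to Cq 38. Detection in 7 of 8 mice with OS and 6 of 6 control mice had a p of 1 by Fisher's exact test (two-sided).

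mmu-miR-21 was among the best detected miRNAs of the plasma, at place 13 of 388 by mean Cq. Its level was 5.22, 6.66 and 7.58 in mice with OS and 6.99, 7.19 and 7.95 in control mice (lowest, median and highest). The control mice lay within a span of 1 cycle, while OS mice 11, 12, 16 and 19 were below all of them and the other 4 mice with OS lay among them. The means were 6.56 ± 0.93 in mice with OS (SD, n = 8) and 7.31 ± 0.36 in control mice (SD, n = 6), a difference of −0.75 (SE 0.41, 95% interval −1.62 to 0.11, limma adjusted p = 0.22). Without OS mice 10, 11 and 12 it was −0.38 (limma adjusted p = 0.621).

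The passenger arm mmu-miR-21* was close to background, at a Cq of 33.7 to 36.2 in control mice. It was above Cq 37 in OS mice 11 and 19 and was detected in 6 of 8 mice with OS and 6 of 6 control mice (Fisher's exact test, two-sided, p = 0.473). Where detected it read −4.52 to −3.69 in mice with OS and −4.29 to −2.43 in control mice. Of the 6 control mice, 5 lay above every mouse with OS. The means were −4.09 ± 0.31 in mice with OS (SD, n = 6) and −3.18 ± 0.68 in control mice (SD, n = 6), a difference of −0.91 (SE 0.37, 95% interval −1.69 to −0.12, limma adjusted p = 0.119). An exact permutation test over the 924 splits of these mice gave p = 0.0152 (two-sided, not adjusted). With each panel scaled to its own mean the difference was −1.36 and its limma adjusted p 0.0378. With missing values set to Cq 38 it was −1.26 (limma adjusted p = 0.0602). With no Cq limit below 40 it was −1.22 (limma adjusted p = 0.0597).

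mmu-miR-218 read −1.82, −1.13 and 0.13 in mice with OS and −0.92, −0.25 and 0.63 in control mice (lowest, median and highest). Below the lowest control were 6 of the 8 mice with OS, and OS mouse 17 stood apart from the other mice with OS at the highest value. The means were −1.04 ± 0.56 in mice with OS (SD, n = 8) and −0.21 ± 0.55 in control mice (SD, n = 6), a difference of −0.83 (SE 0.35, 95% interval −1.56 to −0.10) or 1.78-fold. The limma adjusted p was 0.121, and the exact permutation test gave p = 0.0176 (two-sided, not adjusted). Without OS mouse 17 the difference was −0.995 with a limma adjusted p of 0.0466.

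Whether the connective tissue miRNAs moved together was asked first within each mouse, by the difference between the Cq of 2 assays, which needs no scaling. Over all 36 pairs of assays, 0 pairs passed the exact permutation test between groups after Benjamini-Hochberg adjustment over the pairs, and 5 had an unadjusted p under 0.05. For the arms of the Mir140 hairpin, miR-140 stood −6.49 to −2.78 cycles against miR-140* in mice with OS, with a median of −4.33, and −3.32 to −2.70 in control mice, with a median of −2.995. A negative value means that miR-140* crossed threshold earlier, so it did so in all 14 mice. The control mice lay within 1 cycle of each other, and 7 of the 8 mice with OS lay below all of them. The difference of the means was −1.41 (95% interval −2.46 to −0.36), a 2.66-fold lower ratio of the arms in mice with OS (exact permutation test, two-sided, p = 0.00999, adjusted p = 0.156). Without OS mouse 15 it was −1.65 (exact permutation test, adjusted p = 0.0315), and in that setting 3 further pairs passed, those of miR-140* with miR-21, miR-21* and miR-218. With OS mice 10, 11 and 12 left out it was −0.78 (exact permutation test, adjusted p = 0.343).

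The arms of this hairpin were read on different PCR panels, miR-140 on panel I and miR-140* on panel II. The mean Cq of panel II stood 0.998 ± 0.309 cycles above that of panel I in mice with OS (SD, n = 8) and 1.68 ± 0.19 above it in control mice (SD, n = 6), a difference of −0.69 (exact permutation test, two-sided, p = 0.000333, the smallest that 3003 splits can give). The panels hold different miRNAs, and the 3 miRNAs present on both, miR-423-3p, miR-103 and miR-191, showed panel differences that were −0.02, −0.08 and −0.04 cycles apart between the groups (exact permutation p of 0.894, 0.254 and 0.744, two-sided). With each panel scaled to its own mean, the difference of miR-140 against miR-140* was −0.72 (exact permutation test, adjusted p = 0.348). In that setting the differences of miR-145 over miR-145* and of miR-21 over miR-21*, which are also split between the panels, were 1.23 (exact permutation test, adjusted p = 0.363) and 1.10 (exact permutation test, adjusted p = 0.294). The part of the panels in these results was not tested.

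**Figure D3:**
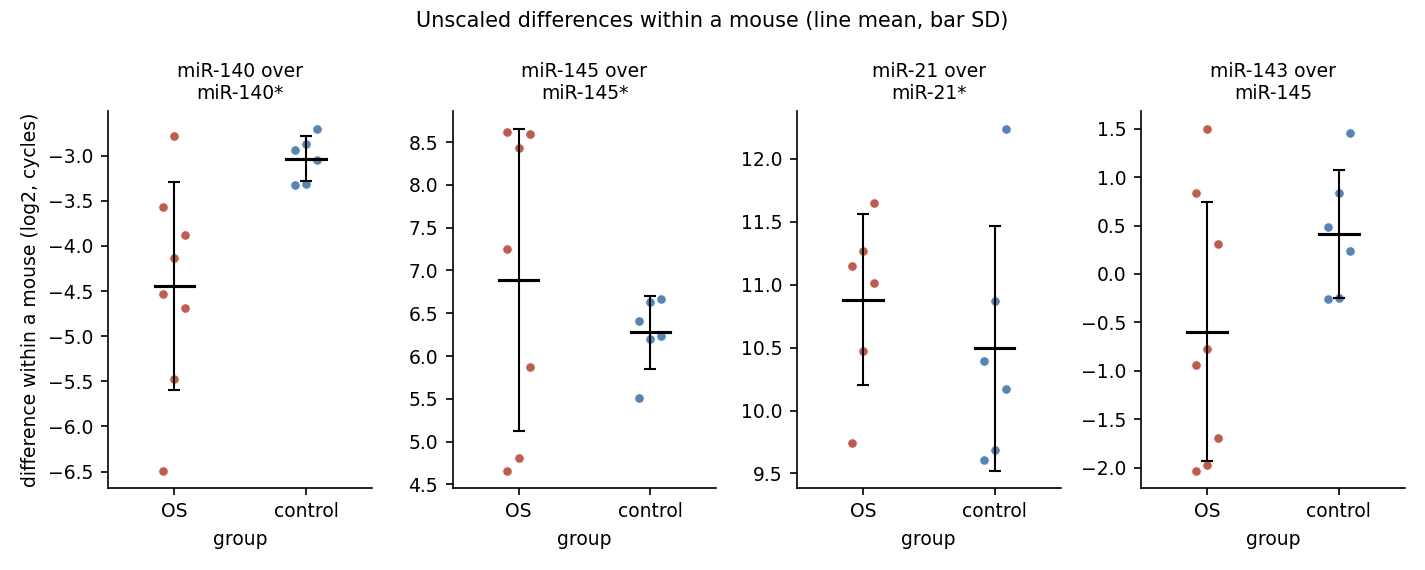
Difference in level between 2 assays within a mouse (y axis, log2 or cycles, unscaled) for the arms of 3 hairpins and for miR-143 over miR-145, with mice with OS on the left and control mice on the right of each panel. Points are mice, lines are means and bars are SDs. For miR-140 over miR-140*, 7 of the 8 mice with OS lie below all control mice, while the groups overlap more widely in the other 3 panels.

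For the other arm pairs, unscaled, miR-145 stood 6.89 ± 1.77 cycles above miR-145* in mice with OS (SD, n = 7) and 6.28 ± 0.42 in control mice (SD, n = 6), and miR-21 stood 10.9 ± 0.68 above miR-21* in mice with OS (SD, n = 6) and 10.5 ± 0.97 in control mice (SD, n = 6). Exact permutation tests (two-sided) gave p = 0.417 and p = 0.448 for these pairs. The difference of means was 0.61 for miR-145 over miR-145*, and 0.33 to 0.99 when 1 mouse was left out, the lowest without OS mouse 19 and the highest without OS mouse 15. For miR-21 over miR-21* it was 0.39, and 0.21 to 0.74 when 1 mouse was left out, the lowest without control mouse 14 and the highest without control mouse 2. The spread of miR-145 over miR-145* is wide in mice with OS, where 4 mice lie above and 2 below all control mice. miR-143 stood −0.59 ± 1.34 cycles against miR-145 in mice with OS (SD, n = 8) and 0.42 ± 0.66 in control mice (SD, n = 6), a difference of −1.01 (95% interval −2.31 to 0.29, exact permutation test, two-sided, p = 0.116, adjusted p = 0.357). It was −0.23 without OS mice 10, 11 and 12 and −0.27 with the marker as a covariate. In mice with OS 5 of 8 ratios of miR-143 over miR-145 lay below and 1 above all control mice. The lowest p of the 36 pairs was that of miR-140* over miR-218, 7.56 ± 0.70 in mice with OS (SD, n = 8) and 6.36 ± 0.59 in control mice (SD, n = 6), a difference of 1.20 (95% interval 0.43 to 1.98, exact permutation test, two-sided, p = 0.00366, adjusted p = 0.132). The mouse and rat assays of miR-143 differed from each other by −1.46 to −1.11 cycles in mice with OS and by −1.27 to −1.03 in control mice. The difference of these means was −0.17, with a 95% interval of −0.30 to −0.04 (exact permutation test, two-sided, p = 0.022, adjusted p = 0.198). These assays of nearly the same molecule are thus among the 5 pairs with an unadjusted p under 0.05.

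The second question was whether the miRNAs followed each other from mouse to mouse. After the group means had been removed, the mouse and rat miR-143 assays followed each other closely (Pearson r = 0.993, Spearman rho = 0.974 over 14 mice, permutation p = 1e-05 for both, the smallest that 100000 permutations can give, adjusted p = 0.00036 over 36 pairs). Left without the 2 mice farthest from the median, r was 0.983. This pair reads nearly the same molecule in separate wells, and was the only one of the 36 to pass after Benjamini-Hochberg adjustment. miR-143 and miR-145, which share a precursor, had an r of −0.03 and a rho of 0.02 (permutation p = 0.932 and 0.955, adjusted p = 0.947 and 0.982), with an r of −0.22 within mice with OS and 0.65 within control mice. The arms of a hairpin had an r of −0.07 for miR-140 with miR-140*, of −0.26 within mice with OS and 0.85 within control mice. For miR-21 with miR-21* r was 0.10 over both groups, 0.87 within mice with OS and −0.73 within control mice. For miR-145 with miR-145* it was −0.28 over both groups, −0.75 within mice with OS and 0.94 within control mice. The values within a group rest on 6 to 8 mice and have opposite signs in the groups, and whether they differ between the groups was not tested.

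Over the 7 assays measured in every mouse, the median r of the 21 pairs was 0.06, and 0.04 without the pair of miR-143 assays, against 0.02 over the 37950 pairs of the 276 miRNAs measured in every mouse. An r over 0.5 was seen in 14.3% of the 21 pairs and in 11.1% of all pairs. In the 21 these were 3 pairs, the miR-143 assays with each other and each of them with miR-218 (r = 0.60 and 0.59). They are therefore not 3 separate relations. Left without the 2 mice farthest by miR-143, the r with miR-218 was 0.065 for the mouse assay and 0.061 for the rat assay. Among all 36 pairs, the highest r after that of the miR-143 assays was 0.77, between miR-145* and miR-21 (rho = 0.66 over 13 mice, permutation p = 0.0251 and 0.0483, adjusted p = 0.225 and 0.388). The lowest was −0.63, between miR-145 and miR-140 (rho = −0.73 over 14 mice, permutation p = 0.0171 and 0.00639, adjusted p = 0.225 and 0.115). Scaling bears on these values: with mice scaled to the 3 reference miRNAs, 16 of 36 pairs passed by r and 15 by rho, and the median over the 21 pairs was 0.54, but it was 0.22 over all 37950 pairs. Unscaled, 17 pairs passed by r and 3 by rho, with a median of 0.52 over the 21 pairs and 0.45 over all pairs. With the haemolysis marker also removed from the deviations, the median was 0.32 over the 21 pairs and 0.03 over all pairs. Scaling to the median gave 0.19 and 0.01, and scaling to all wells 0.09 and 0.06. Scaling the panels separately gave 0.03 and 0.01. In each of these last settings 1 pair passed by r and 1 by rho. Whether the medians of the 21 pairs differ from those of all pairs was not tested.

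**Figure D4:**
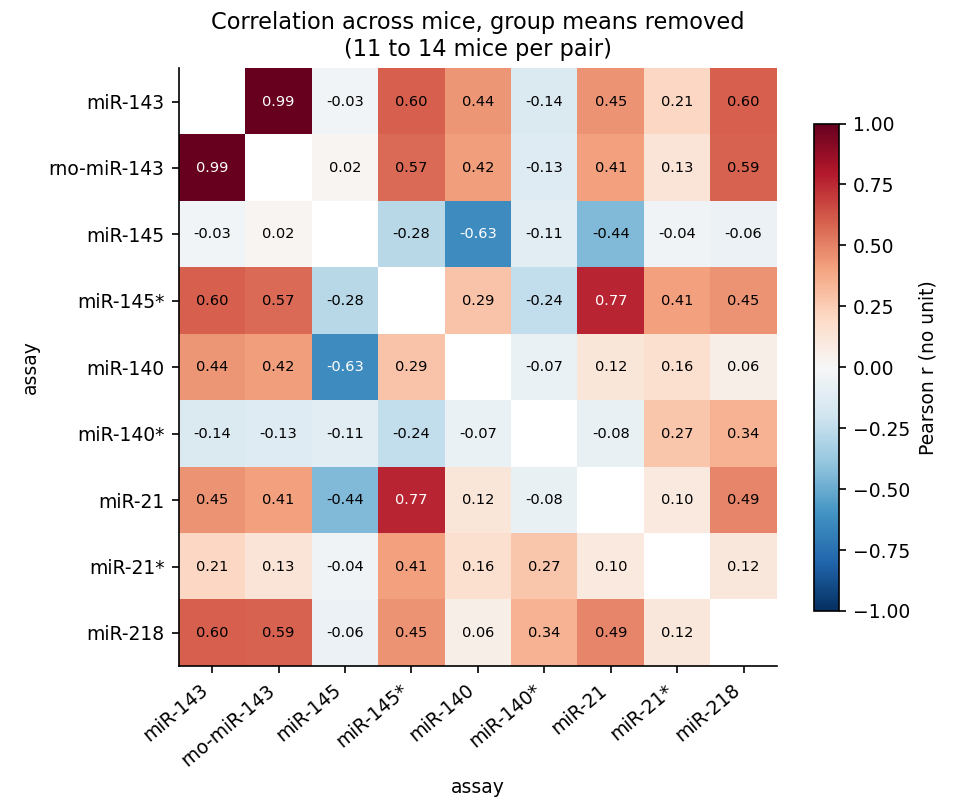
Pearson r between assays (both axes) of the deviations of normalized levels from the group means, over 11 to 14 mice per pair. Red is positive and blue negative, with r written in each cell. The cell of the mouse and rat miR-143 assays is at 0.99, and the cells of miR-143 with miR-145 and of miR-140 with miR-140* lie near 0.

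The haemolysis marker moved with 2 of the 9 assays, in opposite directions, in relations computed for each assay. miR-140 was higher in mice with a higher marker (r = 0.86, rho = 0.85 over 14 mice, permutation adjusted p = 0.00162 and 0.00486 over 9 relations). The relation was similar within mice with OS (r = 0.87) and within control mice (r = 0.84). Left without the 2 mice whose miR-140 deviation from the group mean was farthest from the median, r was 0.77. miR-145 was lower in mice with a higher marker (r = −0.71, rho = −0.70, permutation adjusted p = 0.029 and 0.0423). Within mice with OS its r was −0.65, and within control mice −0.84. Left without the 2 mice farthest in the same sense by miR-145, r was −0.63. For miR-145* the r of 0.45 over both groups hid opposite signs, 0.89 within mice with OS and −0.81 within control mice. For miR-218 r was −0.13 over both groups, 0.18 within mice with OS and −0.73 within control mice. Values within a group were not tested. Over all 276 miRNAs measured in every mouse the median r with the marker was 0.06, with quartiles of −0.32 and 0.42. How many of the 276 would pass the same test was not counted, so the count of 2 has no share beside it.

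Of the within-mouse ratios, the marker moved with miR-140 over miR-140* (r = 0.78, rho = 0.82 over 14 mice, permutation adjusted p = 0.00917 and 0.0044 over 5 ratios) and with miR-143 over miR-145 (r = 0.74, rho = 0.78, permutation adjusted p = 0.00933 and 0.00553). It moved the other way with miR-145 over miR-145* (r = −0.74, rho = −0.75 over 13 mice, permutation adjusted p = 0.00917 and 0.0148). Left without the 2 mice farthest by the ratio itself, r was 0.60, 0.88 and −0.56 for these ratios in the order named. The share of ratios of other miRNAs that move with the marker was not counted. The marker itself was 4.19 ± 1.94 in mice with OS (SD, n = 8) and 5.77 ± 1.43 in control mice (SD, n = 6), a difference of −1.58 (exact permutation test, two-sided, p = 0.117). With the marker as a covariate the difference of miR-140 was −0.56 (limma adjusted p = 0.35) and that of miR-145 was −0.24. In the same fit the difference was −0.90 for miR-218 (limma adjusted p = 0.24) and −0.87 for miR-21* (limma adjusted p = 0.279).

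**Figure D5:**
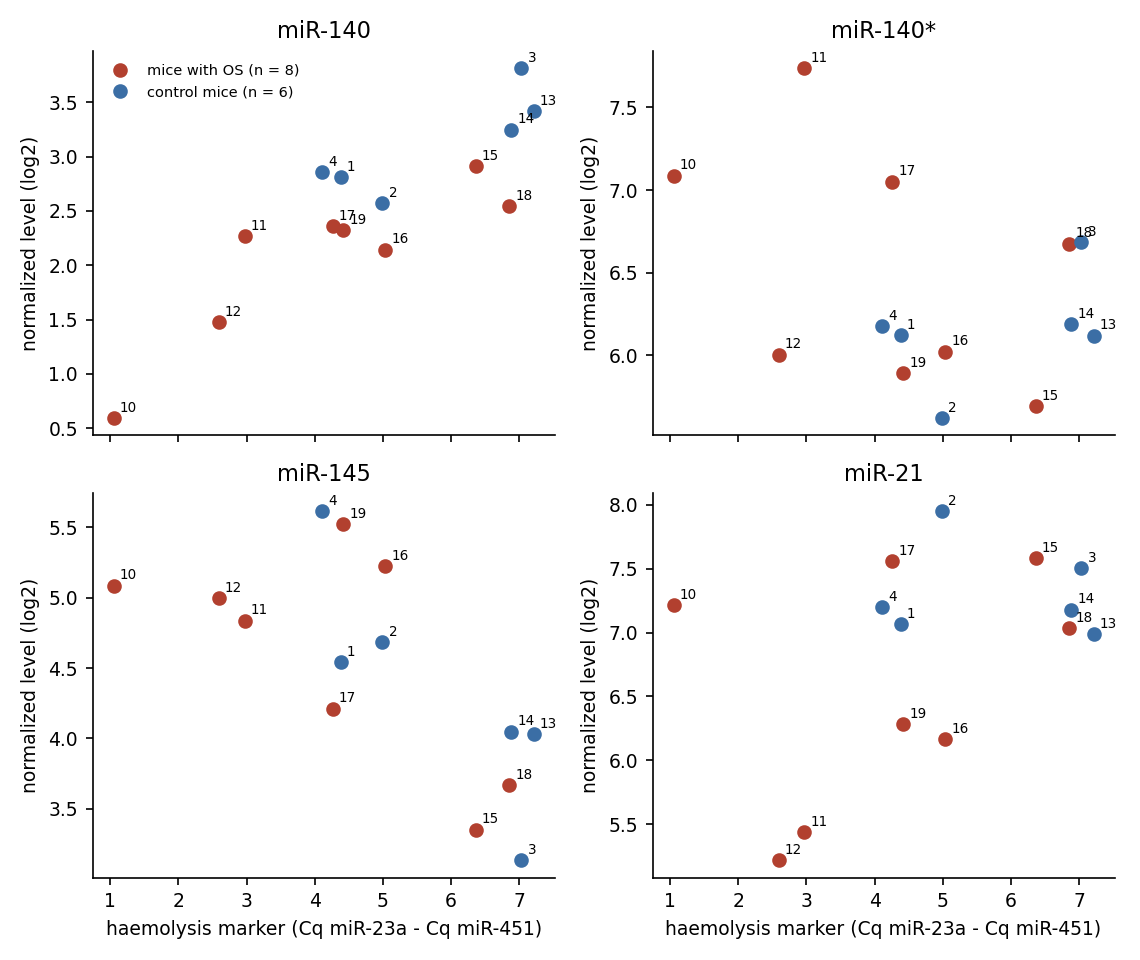
Normalized level (y axis, log2) of miR-140, miR-140*, miR-145 and miR-21 against the haemolysis marker (x axis, cycles, Cq of miR-23a minus Cq of miR-451) in 8 mice with OS (red) and 6 control mice (blue), labelled by replicate number. miR-140 rises with the marker in both groups (r = 0.86), miR-145 runs the other way (r = −0.71), and OS mice 10, 11 and 12 have the lowest markers.

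The miRNAs whose levels followed the assays most closely, by r over all 14 mice after the group means were removed, differed from assay to assay. They are named as a description, 3 for each assay. miR-140 was followed by miR-451 (r = 0.93), miR-16-1* (r = 0.92) and miR-582-5p (r = 0.91), of which miR-451 is the main miRNA of red blood cells. miR-21 was followed by miR-101a (0.89), miR-101b (0.87) and miR-15b* (0.81). miR-143 was followed, after its rat assay, by miR-148b (0.78) and the epithelial miRNA miR-429 (0.73), and the rat assay likewise by miR-148b (0.76) and rat miR-338 (0.69). miR-145 was followed by miR-574-3p (0.74), miR-330* (0.73) and miR-149 (0.69), and miR-140* by miR-10a (0.69), miR-322* (0.68) and miR-320 (0.67). miR-218 was followed by miR-322 (0.87), miR-497 (0.66) and miR-143 (0.60), where miR-322 and miR-497 share a seed family.

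Other miRNAs known from connective tissue, 34 names of which 31 were found in 48 assays, showed no common direction. Of 47 assays tested, 3 were higher in mice with OS, 1 was lower and 43 were not called by limma with Benjamini-Hochberg adjustment, against 6.19% of all 388 miRNAs called higher and 6.44% called lower. The median difference over the 47 was −0.03. Those higher were miR-214, an miRNA of mesenchyme and bone read by a mouse assay (2.22, adjusted p = 0.0457) and a rat assay (2.34, adjusted p = 0.0347), and miR-212-3p (1.60, adjusted p = 0.0407). The 1 lower was miR-29a*, the passenger arm of a miRNA that targets collagen genes (−1.17, adjusted p = 0.0327). Not called, with the next lowest p, were miR-335-5p (1.46, limma adjusted p = 0.0978), miR-574-3p (1.76, limma adjusted p = 0.100) and miR-365 (0.95, limma adjusted p = 0.108).

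Some miRNAs of other sources were also called, beside 6.44% of all 388 miRNAs called lower in mice with OS. Of 9 red blood cell assays, 3 were lower in mice with OS and none higher by limma with Benjamini-Hochberg adjustment. The 3 were miR-144 (−2.38), miR-15b* (−1.49) and miR-16-1* (−1.68), while miR-451 (−1.43, limma adjusted p = 0.132) was not called. All 9 were measured in every mouse. Their summed level on the log2 scale was 9.69 to 13.0 in mice with OS and 12.0 to 14.0 in control mice. The platelet and myeloid list had 1 of 7 lower, miR-142-3p (−3.57). Its summed level was 7.94 to 8.52 in mice with OS and 8.57 to 9.69 in control mice. These ranges did not overlap. Of single miRNAs, 2.84% had groups that did not overlap in either direction and 1.03% did so with lower levels in mice with OS. The share for summed levels of lists was not counted. The epithelial list had 3 of 12 lower, miR-205 (−3.98), miR-141 (−2.23) and miR-203 (−1.73). Its 8 assays measured in every mouse had a summed level of 2.50 to 5.66 in mice with OS and 5.63 to 6.74 in control mice. Above 0 in these lists were miR-486 (0.05), miR-486* (0.04), miR-150 (0.02), miR-200b* (0.42) and miR-203* (0.27), none of them called. None of 8 muscle and 4 liver assays was called. The part of these sources in the levels of the connective tissue miRNAs was not tested.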

How the data were processed

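miRNAs were measured by the authors in plasma RNA of 8 mice with OS and 6 control mice on Exiqon mouse panels I and II with a Roche LC480 instrument, and the methods name GenEx Pro for the processing. The authors deposited Cq values, used here as a score on a log2 scale, for 768 wells per mouse. The sources used here do not say whether calibration and outlier removal came before deposit. The methods give more mice with OS than the 8 analysed here. The authors also deposited a table of their own fold changes and p-values, of which only well positions and names were used. It named 392 wells with 389 miRNAs, and 3 miRNAs with 2 wells were averaged.

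Analysis used R 4.3.3 with limma 3.58.1 and Python 3.11.15 with pandas 2.3.3, scipy 1.17.1 and matplotlib 3.10.9. A Cq above 37 counted as missing, and 388 miRNAs passed a filter that dropped those missing in at least 75% of mice. Each mouse was centred on its mean Cq. For that mean only, a missing value took the group mean or Cq 38. Groups were compared by limma (lmFit, eBayes, two-sided, Benjamini-Hochberg over 388, threshold 0.05), and single values by exact permutation tests over the mice. Cq values come without molecule counts, and errors are therefore the spread across mice. Scripts were tested on simulated data.

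The members and lists were chosen with earlier results of these data known. Named are all 9 assays, the 3 miRNAs most like each assay measured in every mouse, and from the lists the miRNAs called, plus the 3 with the lowest p not called among connective tissue miRNAs. Sequences were matched by name to RefSeq. Alternatives covered scaling, Cq limits, filters, the methods' t-test, the marker and single mice. Those without the mice of a marker under 3, and the panel and marker settings of the within-mouse ratios, were chosen after seeing the data.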

Additional observations from a re-analysis of the deposited data

How the results depend on the processing

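Against 49 miRNAs called, 21 were called without scaling, 29 with a Cq limit of 35, 17 in a fit that held the haemolysis marker, 24 by the methods' t-test, 20 without the 2 mice of a marker over 7 and 8 without the 3 mice of a marker under 3, and 20 to 73 when 1 mouse was left out. Of the 9 assays none was called, also not by the methods' t-test, but 1 was when scaled to all wells (miR-140, −1.18, limma adjusted p = 0.0494, with 13.4% of all miRNAs called), 1 with panels scaled separately (miR-21*, with 11.1% called), and 0 to 1 when 1 mouse was left out. The count of within-mouse pairs passing was 0 to 4 when 1 mouse was left out. Correlated pairs by r numbered 1, and 16 with mice scaled to the 3 reference miRNAs and 17 without scaling. Within control mice alone the count was 0, but 6 mice allow too few orderings for a single pair to pass after adjustment, so this says nothing about the relation. The difference of miR-145 changed sign to −0.17 without scaling, −0.24 in the fit with the marker and −0.12 without mice of a marker over 7. That of miR-145* became 0.37 with a Cq limit of 35 and 0.093 without mice of a marker under 3, and that of miR-140* −0.073 with panels scaled separately and −0.067 without scaling. For miR-145 over miR-145* it was −0.63 with a Cq limit of 35, −0.033 without mice of a marker under 3 and −0.12 in the fit with the marker. The other differences kept their sign in every setting run. The median of all miRNAs moved by 0.14 when scaled to the median, −0.14 to all wells and −0.45 without scaling. The cause of these shifts was not tested.

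No paired analysis was possible because the groups share no replicate number. A Cq limit of 35 left miR-21* without a value in mice with OS, and near Cq 37 the measurement limits miR-21* and miR-145*. The stated p-values measure the spread between 14 mice only.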
